A study of Mus musculus with 74 samples.

Results

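The Gm14401 ChIP experiment in embryonic stem (ES) cells comprised the 1541 peaks that carried this protein's name in the deposited peak list, out of 53255 peaks in the list and 9122 peaks of the 9 proteins profiled in ES cells. Members were chosen by that name alone, and the peaks of the other 8 ES samples (256 to 3906 each) served for comparison. The study mapped where tagged mouse KRAB zinc finger proteins (KRAB-ZFPs) sit on the genome by chromatin immunoprecipitation and sequencing (ChIP-seq). The list names 67 labelled proteins, of which 58 were profiled in F9 embryonal carcinoma cells and 9 in ES cells. All 9 ES samples used cells of the B6 (C57BL/6) background, a C-terminal 3XHA tag (C-3XHA) and an anti-HA antibody (clone 16B12, Covance), after crosslinking with formaldehyde. The proteins were overexpressed from integrated vectors and resistant clones were pooled, so the peaks describe a tagged, introduced protein and not the endogenous one. Gm14401 and 5 others (Gm14399, Gm14419, Gm14420, Gm4631, Gm8898) are labelled with one input control (TI_399_Input) and the remaining 3 (Gm14295, Gm14443, Zfp931) with another (TI_443_Input). The input sample itself is titled TI_339_Input, and whether it is the one labelled TI_399_Input was not settled. There is 1 sample per protein and therefore no replicate and no test between proteins. The intervals given are 95% Wilson intervals of a share, which cover counting error only. A peak list holds no expression values, so the identity of the cells was not checked here, and it gives no library depth.

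KRAB-ZFPs are a large vertebrate family of DNA-binding proteins. Their C2H2 zinc fingers read DNA in a row, each finger contacting a few neighbouring bases, and the KRAB domain recruits the corepressor KAP1 (Trim28), which brings the H3K9 methyltransferase SETDB1 and closes the chromatin. In ES cells the family is known for silencing retrotransposons, among them the intracisternal A particle (IAP) elements, a group of endogenous retroviruses whose proviruses are framed by long terminal repeats (LTRs). Gm14401 lies on chromosome 2 (mm9 chr2:176859025-176872052, plus strand), within a run of related KRAB-ZFP genes. The longest annotated coding model of the gene gives 303 residues with 5 C2H2 fingers, against 7 to 25 fingers in the models of the other 8 ES proteins. The expressed open reading frame itself was not used here.

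Many Gm14401 windows shared a short DNA word. A motif of 14 positions was learned from the 452 single-copy windows on odd-numbered chromosomes, starting from the 8-base word CCAGATAA, which was present in 10.2% of these windows against 0.657% of genome tiles (200 bp tiles taken at even steps along the genome). The sequences below are from the mm9 genome and show, with the matched site in capitals, 6 single-copy promoter windows with high fold enrichment, the window beside Atf7ip, and 3 forms of the site in a repeat family described further on. They are shown because the results turn on which bases of the site vary. The printed sites of forms 1 and 2 lie in Gm14401 windows. The printed site of form 3 does not, since the Gm14401 peak in that repeat copy lies elsewhere and holds no match.
Usp13, chr3:32716846-32716885, plus strand: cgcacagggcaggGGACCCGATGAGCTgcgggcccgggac
Abhd8, chr8:73987609-73987648, plus strand: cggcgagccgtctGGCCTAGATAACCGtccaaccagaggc
Hnrnph1, chr11:50190933-50190972, plus strand: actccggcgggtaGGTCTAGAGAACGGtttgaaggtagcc
Aco1, chr4:40090470-40090509, plus strand: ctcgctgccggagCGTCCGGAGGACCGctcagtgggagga
Lamc1, chr1:155180073-155180112, plus strand: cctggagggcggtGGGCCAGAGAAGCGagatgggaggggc
Hmha1, chr10:79481894-79481933, minus strand: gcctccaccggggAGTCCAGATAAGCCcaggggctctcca
Atf7ip, chr6:136466909-136466948, minus strand: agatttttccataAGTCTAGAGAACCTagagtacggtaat
repeat form 1, chr7:13129281-13129320, minus strand: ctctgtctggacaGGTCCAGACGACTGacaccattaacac
repeat form 2, chrX:111027892-111027931, plus strand: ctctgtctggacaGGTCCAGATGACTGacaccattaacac
repeat form 3, chr16:50913849-50913888, plus strand: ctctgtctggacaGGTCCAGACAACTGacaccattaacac

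In the single-copy sites, some positions hardly varied and others were free. Among the 464 single-copy windows with a match, position 4 was C and positions 8 and 11 were A in 100% of the sites, position 2 was G in 99.8% and position 7 was G in 97.2%. Position 5 was C in 77.8% and T in 22.2%. Position 9 was T in 65.1% and G in 30.6%, and position 10 was A in 53.4% and G in 46.6%. These frequencies describe the sites that passed the threshold, which favours the learned letters.

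A match to the motif was found in 938 of the 1541 Gm14401 windows, 60.9% (58.4 to 63.3), at a score passed by 1.00% of genome tiles. In the other 8 ES samples the share with a match lay between 0.198% (Gm8898) and 3.25% (Gm14419). The motif was learned on 452 of these Gm14401 windows, so the shares are not compared further. On the 458 single-copy windows of the even-numbered chromosomes and X, which were not used for learning, 49.8% (45.2 to 54.3) had a match. Learning on those windows instead began with the same 8-base word, and the motif obtained matched 39.0% of the 1541 windows. At the stricter score passed by 0.1% of tiles, the first motif matched 19.4%. A second, non-overlapping match was present in 25 of the 1541 windows.

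**Figure D1:**
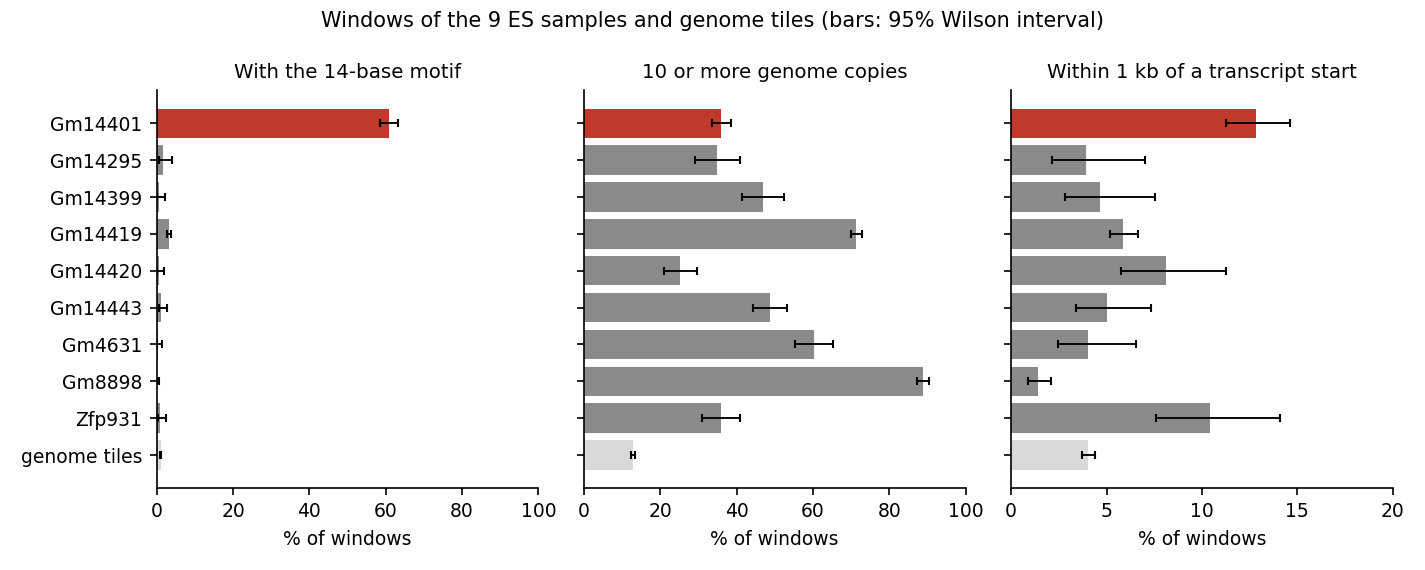
Shares of the 200 bp windows of each ES sample, and of genome tiles, that hold the 14-base motif, lie in sequence with 10 or more genome copies, or have their summit within 1 kb of a transcript start. Bars are percentages of windows (the right panel has a shorter axis) with 95% Wilson intervals. Gm14401 has the motif in 60.9% of its windows and every other sample in 3.25% or fewer. The motif was learned on 452 of the Gm14401 windows counted here, so these shares are not a fair comparison. On the 458 single-copy Gm14401 windows not used for learning the share is 49.8%.

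The matched sites lay close to the summits. In the single-copy windows of the even-numbered chromosomes and X, the centre of the site was a median of 19.5 bp from the summit, and 51.3% of the 228 sites were within 20 bp. In the repeat family described next the median distance was 22 bp over 446 sites. The distance to the summit was not used to find the sites, but the search covered only the 200 bp window centred on it. Within that window, the 10 bp bin just before the summit held 16.2% of the 228 single-copy sites. The bins at both window edges held 0.439% each.

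**Figure D2:**
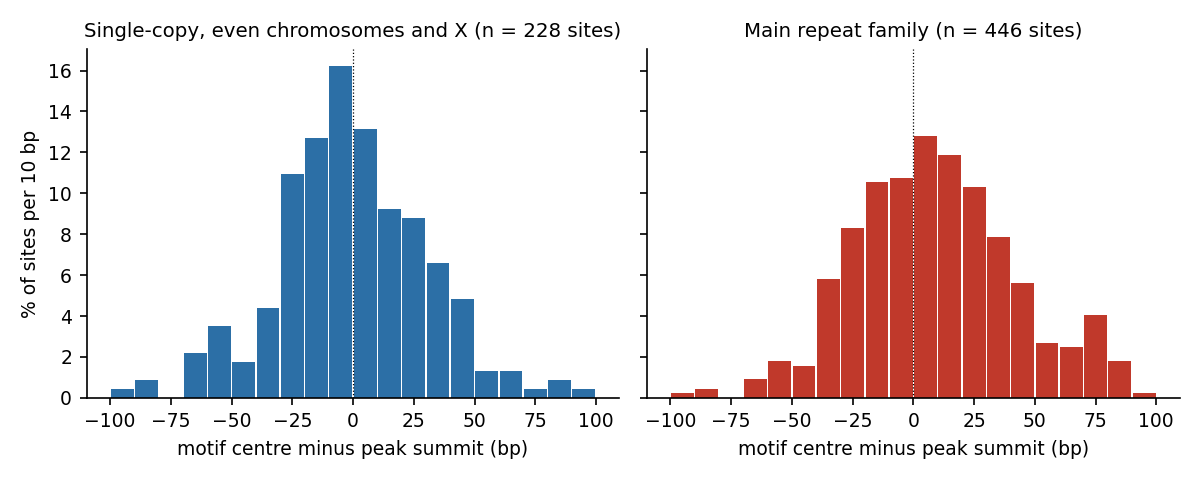
Distance in bp from the peak summit to the centre of the motif match, as the percentage of sites in each 10 bp bin. The left panel shows 228 single-copy sites on chromosomes that were not used to learn the motif and the right panel 446 sites of the main repeat family. Sites were searched only in the 200 bp window centred on the summit, and within it both distributions are highest near 0 and low at the edges. A site can be centred in only part of the outermost bins.

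Of the 1541 windows, 910 (59.1%) were single-copy, with a median of 1 exact genome copy over their 24-base words, and 555 (36.0%, 33.7 to 38.4) were multi-copy, with a median of 10 or more. In genome tiles 12.9% were multi-copy. Among the 114 peaks with a score over 100 and fold over 20 the multi-copy share was 4.39%, so few repeat windows passed this cut. Over all peaks, multi-copy and single-copy windows had similar medians, at 10.93 and 11.45-fold with scores of 63.6 and 69.2. The multi-copy share of the other 8 ES samples ranged from 25.1% (Gm14420) to 88.9% (Gm8898). When the 555 windows were aligned to each other, 466 (84.0%) fell into a single family, with a median of 1017 copies, and 446 of these 466 windows (95.7%) held the motif. These windows are copies of the same repeat and not separate finds of the motif. The commonest of the 3 site forms described below scored 13.9 bits, just over the threshold of 13.3, so this share depends on the threshold. The sites of this family were not the same word as most single-copy sites. Positions 9 and 10 read CG in 310 of the 446 family sites (69.5%) and in 2.59% of the single-copy sites. Position 13 was T in 98.5% of all multi-copy sites and in 5.17% of the single-copy sites. The 89 multi-copy windows outside this family had the motif in 7 cases (7.87%), and the next largest family had 10 windows, none with a match.

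Part of the main family lay inside IAP elements. A 30-base oligo that the study designed from the LTR named IAPLTR1_Mm has 2097 exact copies in the mm9 genome, and it is shown because it marks the ends of these elements.
IAPLTR1_Mm oligo: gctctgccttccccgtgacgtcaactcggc
Pairs of copies on the same strand, 1500 to 10000 bp apart, framed 973 stretches, called elements here, with a median of 6264 bp between the starts of the copies. A Gm14401 summit lay inside 180 of the 973 elements (18.5%, 16.2 to 21.1), and 177 of these summits were windows of the main family. The family reached further than these framed elements, since 275 of its 466 windows had no exact oligo copy within 10 kb.

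Within the elements the Gm14401 summits gathered near the 3′ end. Its summits lay a median of 1070 bp before the end of the 3′ oligo copy, and the middle 90% of them lay between 1000 and 1154 bp. The motif match there was at a median of 1071 bp (middle 90%, 1065 to 1074), and 897 of the 973 elements held one (92.2%). Measured from the 5′ copy, the middle 90% of the Gm14401 summits spread from 2768 to 5829 bp, in elements that themselves differ in length. Gm14419 was placed at the other end, with 858 summits at a median of 320 bp (288 to 396) from the start of the 5′ copy. Gm14443 had 121 summits at 1618 bp (1518 to 1764) and Gm8898 565 summits at 1807 bp (1716 to 1929) from the same point. The middle 90% ranges of these samples, measured from the 5′ copy, did not overlap that of Gm14401. The remaining 5 ES samples had between 0 and 4 summits in the 973 elements.

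**Figure D3:**
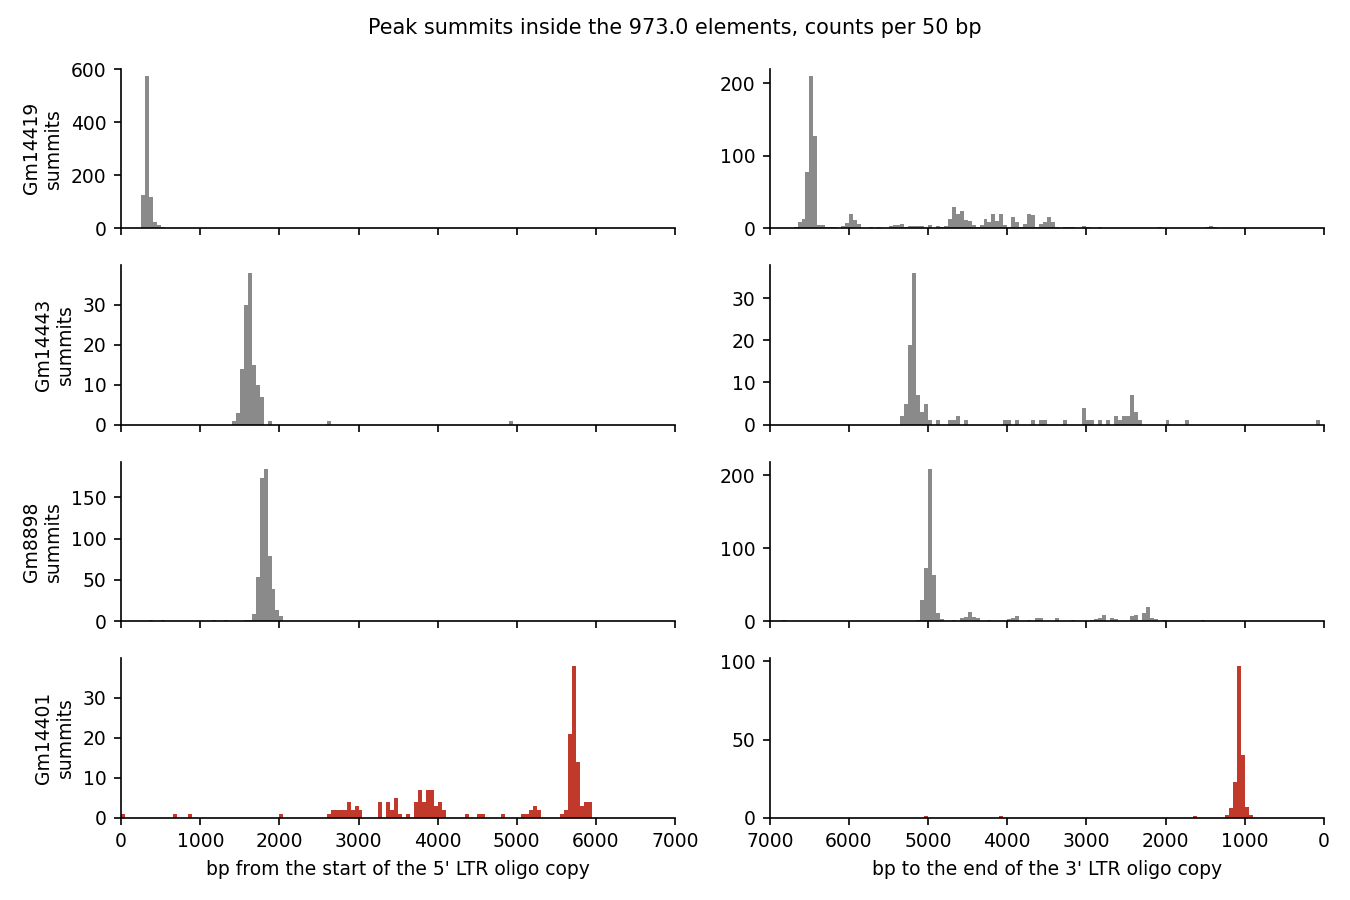
Positions of peak summits inside the 973 elements framed by 2 copies of the IAPLTR1_Mm oligo, counted in 50 bp bins, for Gm14419, Gm14443, Gm8898 and Gm14401. The left column measures from the start of the 5′ oligo copy and the right column to the end of the 3′ copy (axis reversed, so that 5′ is left in both). Gm14401 summits gather at about 1070 bp from the 3′ end, and those of the others at 320, 1618 and 1807 bp from the 5′ end.

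Of the 897 elements with a match, 887 held one of 3 forms of the site, which differ at the 2 neighbouring bases at positions 9 and 10 (counted from 1 at the 5′ end of the capitals above). Form 1 was present in 477 elements. Form 2 carries C9T relative to form 1 and was present in 306 elements. Form 3 carries G10A and was present in 104. The 2 positions thus read CG in form 1, TG in form 2 and CA in form 3. Forms 1 and 3 scored 13.9 and 13.6 bits, just over the threshold of 13.3 and under the stricter one of 15.9. Form 2 scored 16.7 bits. A Gm14401 summit lay in 109 elements of form 1 (22.9%, 19.3 to 26.8) and in 67 of form 2 (21.9%, 17.6 to 26.9). In form 3 it lay in 2 of 104 (1.92%, 0.529 to 6.74). A summit anywhere inside the element was counted. Counting only windows that cover the site, the shares were 21.4%, 21.2% and 0.962% in forms 1, 2 and 3. Among the 76 elements with no match a Gm14401 summit lay in 0 (upper limit 4.81%). These calls rest almost wholly on peaks of low score, since with peaks scoring over 100 the shares were 0.629%, 0.980% and 0% in forms 1, 2 and 3, too few to compare. The interval of form 3 does not overlap those of forms 1 and 2, which overlap each other, but this is not a test of a difference. The intervals treat the elements of 1 sample as independent counts, which copies of a repeat may not be. The forms were chosen after the values were seen, and form 3 rests on 2 elements.

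Around the site the 3 forms had nearly the same consensus, but the copies of form 3 were less alike. Over 214 bases centred on the site, the consensus of form 2 differed from that of form 1 at 1 base, the one in the site, and the consensus of form 3 at 2 bases, of which 1 lies outside the site. More than 90% of the elements of a form carried the same base at 207 of the 214 positions in forms 1 and 2 and at 175 in form 3, and the part of this divergence in the lower share at form 3 was not tested. For the other ES samples with many summits in these elements the shares by form were as follows. Gm14419 had summits in 96.0% of form 1, 76.1% of form 2 and 85.6% of form 3 elements. Gm8898 had them in 67.5%, 45.8% and 51.0%, and Gm14443 in 12.4%, 13.1% and 8.65%. Gm14419 and Gm8898 are labelled with the same input as Gm14401. Reads that match several copies equally well were placed on one of them at random by the aligner, so the call at any single element is uncertain, and the part of this placement in the differences between forms was not tested.

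**Figure D4:**
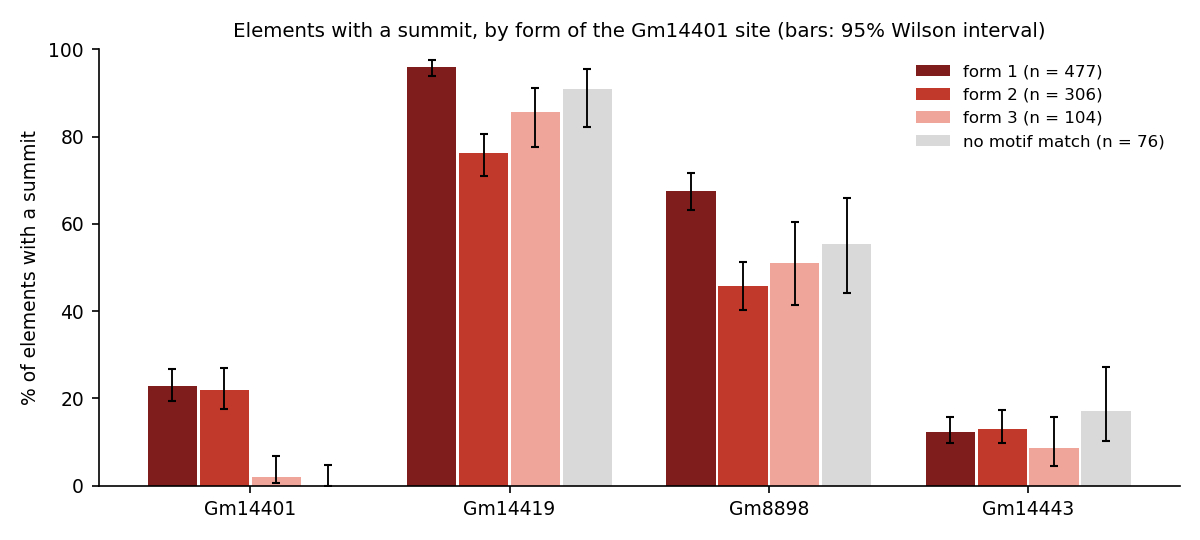
Percentage of elements with a summit of each protein, split by the form of the Gm14401 site (form 1, 477 elements; form 2, 306; form 3, 104; no motif match, 76), with 95% Wilson intervals. Gm14401 has summits in 22.9% and 21.9% of elements of forms 1 and 2 and in 1.92% of form 3, and Gm14419 has summits in 85.6% of form 3 elements.

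The same order of forms was seen over the whole genome. Of 1106 exact copies of the form 1 site, 315 (28.5%, 25.9 to 31.2) lay in a Gm14401 window, of 577 copies of form 2, 134 (23.2%, 20.0 to 26.8), and of 189 copies of form 3, 5 (2.65%, 1.14 to 6.04). These copies include those in the elements and are not separate evidence. Of all 126844 motif matches in the genome, 974 (0.768%) lay in a Gm14401 window. Leaving out the 3 forms, the share was 0.416% of 124972 matches. The most abundant other word, GGACCAGAGGACAG, had 4731 copies and 3 of them lay in a Gm14401 window (0.0634%). Among the matches other than the 3 forms, those with TA at positions 9 and 10 lay in a window in 1.18% of 14031 cases and those with TG in 0.576% of 29356. Those with AG did so in 0.363% of 2480, those with GA in 0.322% of 32643, those with GG in 0.135% of 43621, and those with CA in 0 of 1728 (upper limit 0.222%). Matches with other pairs, CG among them, are not listed here. The motif was learned on 452 Gm14401 windows that are counted here, and T and A are its commonest letters at these positions. The order of the pairs is therefore not independent of the learning. A match in the genome is a run of letters and not a bound site.

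Some Gm14401 sites lay at gene starts. The summit lay within 1 kb of an annotated transcript start in 198 of the 1541 peaks (12.8%, 11.3 to 14.6), against 4.02% of genome tiles and 1.38% (Gm8898) to 10.4% (Zfp931) in the other ES samples. Among single-copy peaks the share was 21.0% (18.5 to 23.8), against 4.29% of single-copy tiles and 3.95% (Gm14295) to 19.3% (Gm14419) elsewhere. The 191 single-copy windows near a start had a median GC content of 57.5% and 10 CpG dinucleotides, and the 719 farther away 47% and 2. The motif was present in 57.1% of the former, 109 of 191, and 49.4% of the latter, 355 of 719, and their intervals overlap. Over the genome, motif matches other than the 3 forms lay in a Gm14401 window in 1.76% of 6894 cases within 1 kb of a start and in 0.338% of 118078 cases farther away. Introns held 35.1% (32.8 to 37.5) of the summits, close to the 37.9% of genome tiles, and coding exons 2.86%.

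The 15 single-copy promoter peaks with the highest fold enrichment over input ranged from 27.77 to 60.22-fold with 33 to 97 tags each, and 9 of them held the motif. Their deposited false discovery rate, described further on, was high, from 20% (Slc8a2 and Ccdc163) to 75% (Abhd8). The highest was Usp13, a deubiquitinating enzyme, at 60.22-fold with 65 tags, its summit 224 bp from the start. Abhd8, which encodes an alpha/beta hydrolase domain protein, reached 43.25-fold with 97 tags at 64 bp. Hnrnph1, a splicing regulator that binds RNA, reached 42.6-fold at 274 bp.
The sites of these 3 promoters, printed above, differ from each other at several of the free positions but keep the invariant bases at positions 2, 4, 8 and 11.
Aco1, the cytosolic aconitase that also acts as an iron regulatory protein, stood at 33.95-fold, and Lamc1, the laminin gamma 1 chain of basement membranes, at 29.8-fold. Hmha1 stood at 29.63-fold, and Mylip, an E3 ubiquitin ligase that degrades the LDL receptor, at 28.74-fold. Slc8a2, a sodium-calcium exchanger, stood at 27.77-fold.

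The other 6 of these promoter peaks had no match at the threshold. Vrk3, a member of the vaccinia-related kinase family, had 46.45-fold enrichment with its summit 6 bp from the start. The summit base is annotated as untranslated and lies within the gene models of both Vrk3 and Zfp473. Hccs, which attaches haem to cytochrome c, had 41.64-fold. Gm17544 had 35.51-fold, Rangrf, a Ran-binding factor, 28.94-fold, Pmaip1, the pro-apoptotic protein Noxa, 28.74-fold, and Ccdc163 28.21-fold. The strongest peaks of Gm14401 by fold therefore included promoters with and without the learned word. Of the 15 promoter windows, 13 were called in no other sample of the series. Aco1 was also called for Gm13152 and Pmaip1 for Zfp961, both in F9 cells.

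Of the 10 peaks with the highest score (minus 10 times the log10 of the caller's p value), 7 held the motif and 8 were single-copy. The highest score, 2483.03, belonged to a peak in an intron of Znrf3, a ubiquitin ligase that limits Wnt receptors (chr11:5327985-5328184). This peak had 256 tags and 41.65-fold enrichment, a median of 35 copies and no motif, and was called in no other sample. The second, 67.4 kb from the start of Slc37a3 (chr6:39260214-39260413), scored 952.51 at 50.51-fold, and its best word fell just under the threshold, at 13.1 against 13.3 bits. The third (chr5:136433598-136433797, 4443 bp from the start of Srcrb4d) had the highest fold of all Gm14401 peaks, 82.29, with 95 tags and no motif. The deposited false discovery rate was 0% for the first of these peaks, 50% for the second and 66.67% for the third. Among the others were a coding exon of Ptger1, a prostaglandin E receptor, at 39.98-fold and the Il11ra1 locus, which encodes the interleukin 11 receptor alpha chain, at 47.02-fold, both with the motif.

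Of 70 genes listed for the pluripotency network, the KAP1 silencing machinery and the KRAB-ZFPs of chromosome 2, 67 were in the annotation and 1 had a Gm14401 summit within 10 kb of a transcript start. Over all 22225 protein-coding genes the share was 2.87%. That gene was Atf7ip, a partner of SETDB1 in H3K9 methylation. Its peak lay 443 bp from the start, with 51 tags and 27.45-fold enrichment, and held the motif 0.5 bp from the summit. The window has a GC content of 31%, below that of each of the 15 promoter windows above (48 to 77.5%), and was called in no other sample. None of the 23 annotated pluripotency genes and none of the 18 annotated chromosome 2 KRAB-ZFP genes had a summit. The summit nearest to Gm14401 itself was 465 kb away.

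Only 2 annotated genes held 4 or more Gm14401 summits, and both gene models extend over several neighbours. Gm20388, a model of 4435 kb on chromosome 8, held 6 summits, 4 of them with the motif, and among these was the peak in the intron of Fam38a (Piezo1, a mechanically gated ion channel) at 33.32-fold. Fgfr2, a fibroblast growth factor receptor annotated over 3009 kb, held 4 summits, 2 with the motif, and the highest of these, at 23.05-fold, lay 90 bp from the start of Pstk. None of these 10 summits belonged to the main repeat family. Gm14401 summits were seldom close together, with 46 of 1541 (2.99%, 2.25 to 3.96) within 10 kb of another.

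The single-copy peaks of higher fold held the motif more often. It was present in 69.0% of the 100 single-copy peaks of highest fold (59.4 to 77.2), in 67.5% of the next 200 (60.7 to 73.6), in 49.3% of the next 300 (43.7 to 55.0) and in 36.1% of the last 310 (31.0 to 41.6). In the 446 single-copy windows without a match, the most over-represented 8-base word was CTAGATAA (6.28% of windows against 0.485% of tiles). This word is the seed of the motif with T at position 5 of the site.

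Peaks were modest in size. Called widths had a median of 391 bp, tags a median of 15 (9 to 1171) and fold enrichment a median of 11.21 (2.19 to 82.29), with 95% of peaks at or under 22.72-fold. The medians of the other ES samples ran from 9.63-fold (Gm4631) to 24.4-fold (Gm14419). The false discovery rate (FDR) that the peak caller gives from exchanging sample and input had a median of 10.07%, and 1 peak, that of Znrf3, was at or under 5%. The 100 peaks of highest fold had a median FDR of 21.1%, above that of all peaks, and 65 of them held the motif.

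Peaks with many tags and low fold stood apart. Of 10 peaks with 100 or more tags, 7 were under 10-fold, none of these 7 held the motif, and 4 of them were also called in another ES sample. The extreme case, in an intron of Gm10801 (chr2:98502722-98502921), had 1171 tags at 2.19-fold, and Gm14399, Gm14419, Gm4631 and Gm8898, all labelled with the same input, were called there at 1.89 to 2.36-fold. A second such peak (chr9:35112953-35113152) had 644 tags at 3.03-fold and was called in 3 of these samples. Otherwise Gm14401 windows rarely overlapped those of another ES sample. Of the 1541 loci, 14 (0.909%, 0.542 to 1.52) overlapped a window of another ES sample by 25% or more, and 3 of these 14 held the motif. In the other ES samples 1.31% (Gm14420) to 32.9% (Gm14399) of loci were shared in this way. This count leaves out summits at different positions of the same element. Of the 180 elements with a Gm14401 summit, 87.2% also held a Gm14419 summit, 58.9% a Gm8898 summit and 12.2% a Gm14443 summit. In the 793 elements without a Gm14401 summit the shares were near these, at 88.4%, 57.6% and 12.5%.

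**Figure D5:**
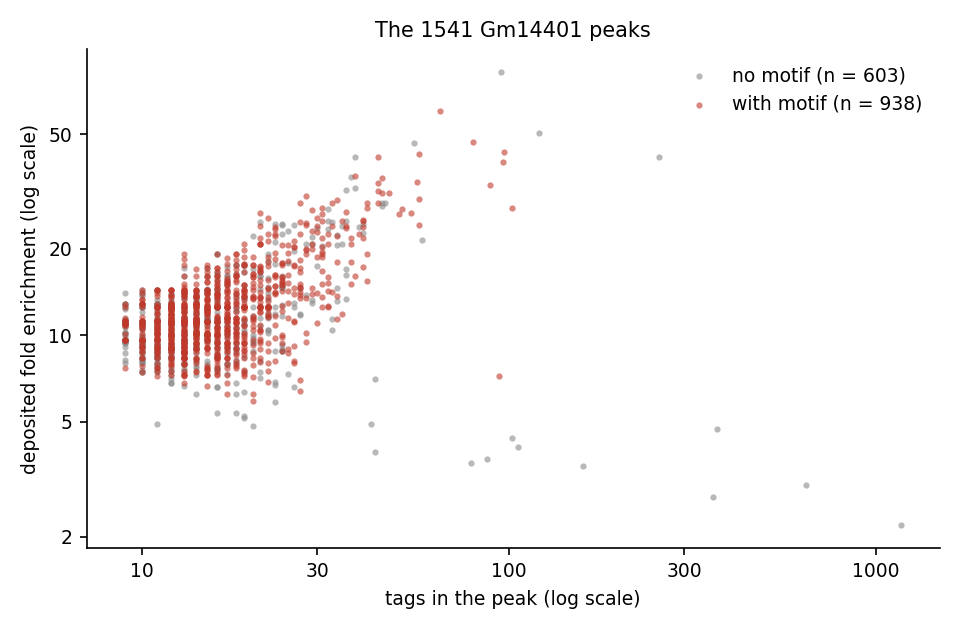
Deposited fold enrichment over input against the number of tags for the 1541 Gm14401 peaks, both axes logarithmic, coloured by the presence of the motif (938 with, 603 without). The peaks at the lower right, with 100 or more tags and under 10-fold, have no motif.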

How the data were processed

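The authors aligned reads to mm9 with Bowtie (--best, a read with several equally good places going to 1 at random) and called peaks with MACS 1.4.2 at p under 1e-05 against input. The deposited list gives, per peak, a 200 bp window around the summit, the called width, the tag count, the score, the fold over input as a ratio and the FDR in percent. All are as deposited. 1 name with 244 peaks matched no label and was not used.

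Peaks and lists were chosen with earlier results of these data known. Sequence came from the mm9 assembly (NCBIM37), genes from GENCODE vM1 and the oligo sequence from the study's oligo list. Copy number is the median exact count of the 24-base words of a window over both strands. The motif was learned by expectation maximisation (checked on simulated data, as was copy counting), with a threshold passed by 1.00% of 12792 tiles, and both strands were searched. Multi-copy windows were grouped by blastn 2.17.0 (E value 1e-10, alignments of at least 100 bp, single linkage). A window shared by 25% counted as overlapping. Python 3.11.15, numpy 2.4.6 and scipy 1.17.1 were used.

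The genes named were fixed by rule: the 10 highest scores, the 15 single-copy promoter peaks of highest fold, genes with 4 or more summits, the 5 loci called in most samples, members of 3 gene lists within 10 kb, and Gm14401. 1 promoter peak that this rule takes in is counted but not reported by name here. The elements, site forms and peaks with many tags were chosen after the values were seen. With 1 sample per protein no test was run.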

Additional observations from a re-analysis of the deposited data

How the results depend on the processing

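No paired analysis was possible because each protein has 1 sample. The number of Gm14401 peaks fell from 1541 to 281 at a score over 100, to 114 with fold also over 20, and to 1 at an FDR of at most 5%. The multi-copy share (36.0%) was 40.9% from 2 copies on, 32.1% from 100 copies on and 4.39% among the 114 strict peaks. The motif share (60.9%) was 53.1% within 50 bp of the summit, 19.4% at a score passed by 0.1% of tiles, 66.7% in strict peaks and 39.0% with the motif learned on the even chromosomes and X. The share near transcript starts (12.8%) was 28.0% at 5 kb and 37.7% in strict peaks, and the intron share (35.1%) was 41.2% in single-copy peaks. The share of loci also called in another ES sample (0.909%) was 1.95% with summits within 1 kb and 0% at an FDR of at most 5%, where 1 peak is left. The share within 10 kb of another summit (2.99%) was 1.56% at 5 kb. The shares of elements of form 1, 2 and 3 with a summit (22.9%, 21.9% and 1.92%) were 0.629%, 0.98% and 0% with peaks scoring over 100, too few to compare the forms, and form 1 stood at 28.5% over every exact genome copy. These element alternatives were added after seeing the data. Where no construction shows it, the cause was not tested.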

Other observations

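Counting all samples of the series, 65 of the 1541 Gm14401 loci overlapped a window of another protein. The most were shared with Gm13152 in F9 cells, 19 loci, which is 1.23% of the Gm14401 list and 0.366% of the Gm13152 list. Gm13154 shared 9 loci (0.584% and 0.577%). Of the loci called in 2 other samples, the 3 of highest fold lay at the start of Rfwd3, a ubiquitin ligase of the DNA damage response (26.36-fold, with the motif), in an intron of Sgol1, which protects centromeric cohesion (20.83-fold, no match), and 90 bp from the start of 2310028H24Rik (12.64-fold, with the motif).

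Single-copy Gm14401 peaks were spread unevenly over the chromosomes, leaving out Y, of which the assembly holds 2.70 Mb with 0 peaks, from 0.0617 per Mb on X (10 peaks) to 0.705 per Mb on chromosome 8 (88 peaks), with 0.265 per Mb on chromosome 9 the lowest among the autosomes. The main repeat family had 30 windows on X and 16 on chromosome 8. The other ES samples and the genome tiles were not counted by chromosome. Whether this spread is particular to Gm14401 was therefore not tested.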
